A study of Homo sapiens with 21 samples.

Results

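The genes described here are the 38 ATF4 amino acid response genes, measured in HepG2 cells exposed to caffeine. They were taken by name from a list whose rule uses no measured value, though the list was drawn up with earlier results of these data known. All 38 were found by symbol among the 37637 features of the count table (32937 with an Ensembl identifier). HepG2 is a human hepatocellular carcinoma line. Cultures spent 24 h in DMEM lacking serum, with caffeine at 0.01, 0.1, 1, 10, 100 or 1000 µM or with none. Each of the 7 groups has 3 cultures described as biological replicates, which gives 21 libraries. The untreated control cells were also without serum for the 24 h, so all 7 groups share that condition, and all come from this 1 cell line.

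ATF4 is the transcription factor of the amino acid response. When an amino acid runs short, the kinase GCN2 phosphorylates the translation factor eIF2, general protein synthesis slows, and the ATF4 mRNA is translated more. Other eIF2 kinases lead to the same step under stress in the endoplasmic reticulum, haem shortage or viral infection. ATF4 then acts at genes that make, import and charge amino acids, that supply one-carbon units from serine, and that damp the response. In liver cells the same programme meets a heavy demand for amino acids in the synthesis of plasma proteins. Because the regulation of ATF4 is largely translational, read counts for its mRNA do not measure its protein.

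The members fall into 8 branches. There are 5 regulators, 6 effectors, 3 serine synthesis enzymes, 4 mitochondrial one-carbon enzymes, 5 other amino acid enzymes, 2 transsulfuration enzymes, 7 transporters and 6 aminoacyl-tRNA synthetases.

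ATF4 binds DNA in pairs with C/EBP proteins, at a composite site known as the C/EBP-ATF response element, or CARE. The letters TGATGNAA, which are the core of such sites, were searched on both strands of the RefSeq promoters (GRCh38.p14, 250 bases before to 50 after each listed start). A promoter was listed for 31 of the 38 members, and 11 of those 31 (35.5%) held the letters. Of 27305 genes with a listed promoter, 1217 (4.46%) held them, as did 3.62% of 35116 promoters. The 9 stretches below belong to members whose levels are described further on. Each shows 30 bases of the gene's own strand, 5′ to 3′, with the matching letters, or their reverse complement, in capitals.
ASNS, chr7:97872458-97872487: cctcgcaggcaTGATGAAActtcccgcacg
CEBPG, chr19:33374060-33374089: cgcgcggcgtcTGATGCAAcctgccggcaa
CHAC1, chr15:40953251-40953280: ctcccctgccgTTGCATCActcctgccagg
MTHFD1L, chr6:150866346-150866375: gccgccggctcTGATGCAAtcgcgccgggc
SLC7A1, chr13:29595663-29595692: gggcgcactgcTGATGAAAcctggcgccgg
SLC1A4, chr2:64989381-64989410: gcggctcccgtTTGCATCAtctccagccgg
SLC3A2, chr11:62881719-62881748: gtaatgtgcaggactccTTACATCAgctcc
GARS1, chr7:30594834-30594863: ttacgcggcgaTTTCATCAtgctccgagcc
AARS1, chr16:70289675-70289704: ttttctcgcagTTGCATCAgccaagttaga

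In MTHFD1L, SLC7A1 and SLC3A2 the match lies after the listed start, and in the other 6 it begins before it. NARS1 and SLC1A5 also held a match. The cAMP response element TGACGTCA, searched in the same way, shares its first 3 letters with the CARE core but differs at the next. It was found in 1 member, PPP1R15A, and in 2.25% of genes with a listed promoter. A match describes these letters only and is not a measured binding site.

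Library totals ran from 23502519 to 44815552 counts. The libraries fall into 3 sets by their mitochondrial mRNAs, and the sets do not follow the doses evenly. Of the 11 libraries in set A, 9 are those of control, 0.01 µM and 0.1 µM, and the others are replicates 1 and 2 of the 1 µM group. The remaining 1 µM library (replicate 3), every 10 µM library, 100 µM replicate 2 and 1000 µM replicates 1 and 2 make up set B, with 7. The 3 libraries of set C are 100 µM replicates 1 and 3 and 1000 µM replicate 3. The share of counts from mitochondrial mRNAs was lowest in set B (4.70% to 4.93%), against 9.93% to 14.2% for set A and 11.7% to 12.8% for set C. No control is in set B or C, so contrasts with control at 10 µM and above cross sets, those at 0.01 and 0.1 µM stay in set A, and only the 1 µM group links A to B. That link has 1 library in set B, 1 µM replicate 3, so set-term values against control at 10 µM and above depend on it. The 100 and 1000 µM groups are both split between B and C. Most member changes at 1000 µM are therefore given also from a fit with the set as a term, and some comparisons were made inside a set. What the sets stand for is not in the labels, and their part in each result was not tested beyond these values.

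At 1000 µM most of the amino acid response was higher than in control cells. Of the 38 members, 33 rose and 3 fell by edgeR's quasi-likelihood test at an adjusted p of 0.05. Over all 17951 features tested 57.6% passed, 28.5% higher and 29.1% lower. In the fit with the library set 31 members were higher and 2 lower, beside 38% of all features (18.2% higher, 19.8% lower). The median log2 fold change of the members was 0.98, and 0.97 with the set term, where the median of all features was -0.01 without it. All 38 members passed the filter on low counts.

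The summed level of the members was 6611, 6473 and 6375 CPM (read counts scaled to a common library size) in the 3 control libraries. It was 6213, 6764 and 6207 CPM at 100 µM and 11715, 12015 and 11430 CPM at 1000 µM. The 1000 µM libraries thus stood apart from the other 18, none of which exceeded 6983 CPM. For 29 members the 3 libraries at 1000 µM lay above all 18 others, as they did for 13% of all features tested. ALDH18A1 was the 1 member for which they lay below all others (12.3% of features). Against the 3 controls alone they lay above for 33 members (28.1% of features) and below for DDIT4 and ALDH18A1 (28.5%).

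**Figure D1:**
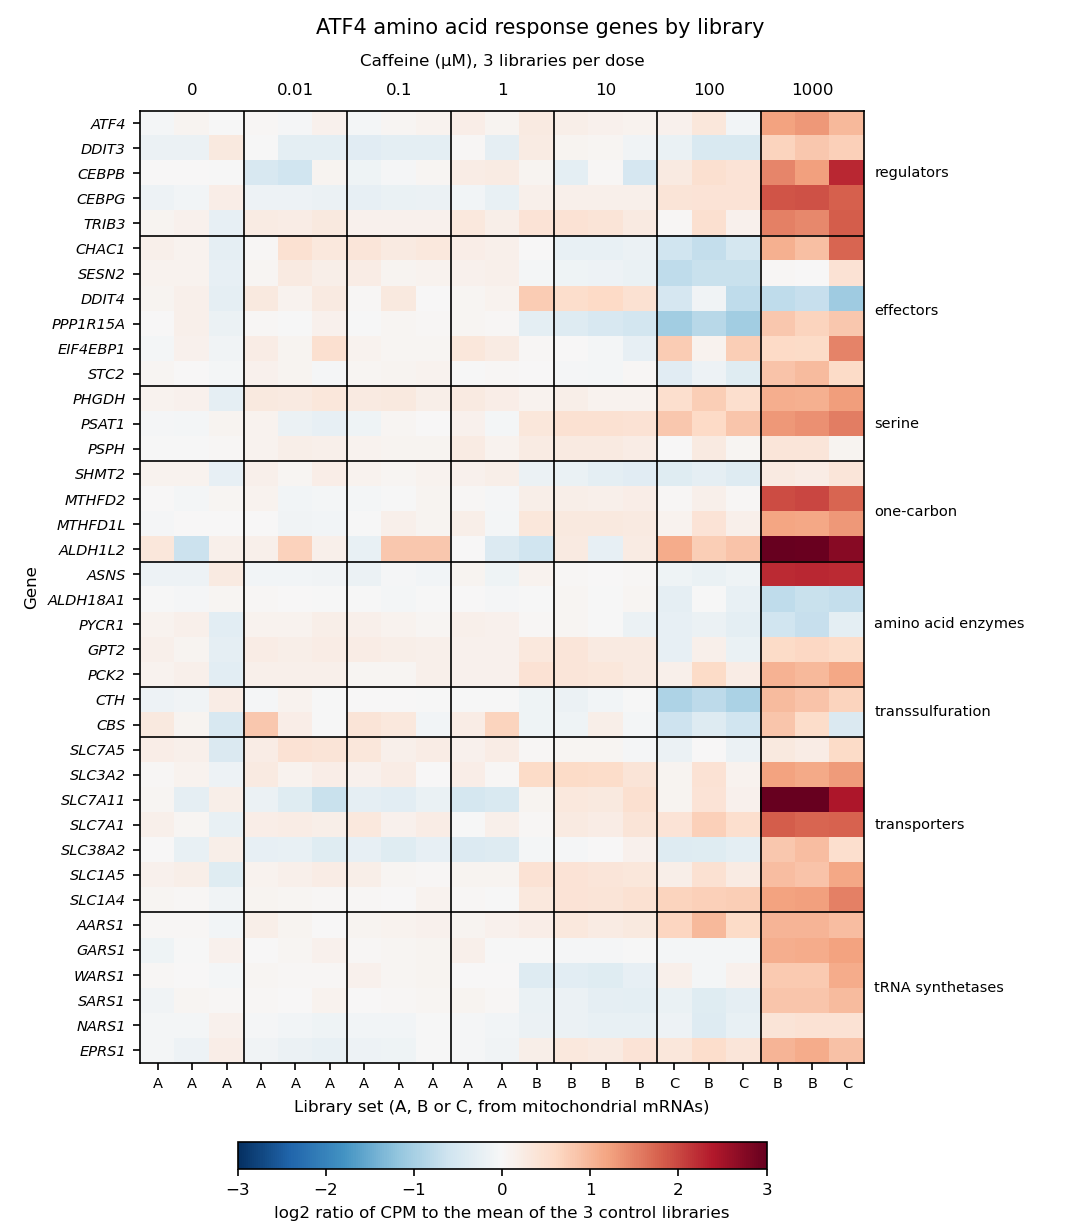
The heat map plots the log2 ratio of each member's CPM to its mean in the 3 control libraries, with genes in rows grouped by branch and the 21 libraries in columns grouped by caffeine dose in µM. The letters under the columns name the library set and colours stop at ±3. The 3 columns at 1000 µM are red for most rows, and ALDH18A1 is blue in all 3.

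The ATF4 transcript itself rose about 2-fold at 1000 µM, a size not reached at any lower dose. Its level was 429, 474 and 444 CPM in the control libraries, 459, 437 and 488 at 0.01 µM and 429.8, 469.5 and 482 at 0.1 µM. It was 516, 477 and 544 CPM at 1 µM, 508, 488 and 486 at 10 µM and 490.0, 569 and 422 at 100 µM. All libraries at 1 and 10 µM thus lay somewhat above the controls. At 1000 µM the ATF4 level was 1042, 1108 and 884 CPM, so those 3 libraries lay above the other 18, and replicate 3 from set C was the lowest of them. The log2 fold change against control was 1.17 ± 0.10 (SE, adjusted p = 1.04e-08, edgeR), and 1.14 with the set term.

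The other regulators rose with it. CEBPG, a C/EBP protein that pairs with ATF4, was at 38.1, 40.0 and 49.0 CPM in controls, 55.5, 55.9 and 56.3 at 100 µM and 157, 159 and 146 at 1000 µM. The 12 libraries at 0.01 to 10 µM ran over 35.7 to 47.4 CPM (median 37.9). CEBPG was 3.63-fold higher than control at 1000 µM (log2 1.86 ± 0.10, adjusted p = 8.67e-12, edgeR; 1.57 with the set term). The control, 100 µM and 1000 µM libraries did not overlap, though with the set term CEBPG did not pass at 100 µM.

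CEBPB, a further C/EBP partner, had 18.2, 18.1 and 17.8 CPM in controls, 11.9 to 21.3 CPM (median 17.98) at 0.01 to 10 µM, 21.9, 25.3 and 23.9 at 100 µM and 50.01, 42.1 and 86.6 at 1000 µM. Replicate 3 at 1000 µM, the set C library, was 1.88 times the mean of the 2 set B libraries. The log2 fold change was 1.72 ± 0.21 (adjusted p = 1.54e-06, edgeR) and 1.70 with the set term. TRIB3, a pseudokinase that restrains ATF4, was at 140.3, 145 and 111 CPM in controls, 144 to 178 CPM (median 158) at 0.01 to 10 µM and 134, 184 and 144 at 100 µM. It stood at 379.6, 361 and 466 CPM at 1000 µM, above all others, with a log2 fold change of 1.61 ± 0.12 (adjusted p = 1.63e-09, edgeR; 1.45 with the set term).

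DDIT3, which encodes the stress factor CHOP, was the least changed regulator, at 7.67, 7.68 and 10.6 CPM in controls and 13.7, 15.2 and 14.3 at 1000 µM. The log2 fold change of 0.74 ± 0.14 (adjusted p = 1.53e-04, edgeR) became 0.37 ± 0.23 with the set term, where it did not pass (adjusted p = 0.221).

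**Figure D2:**
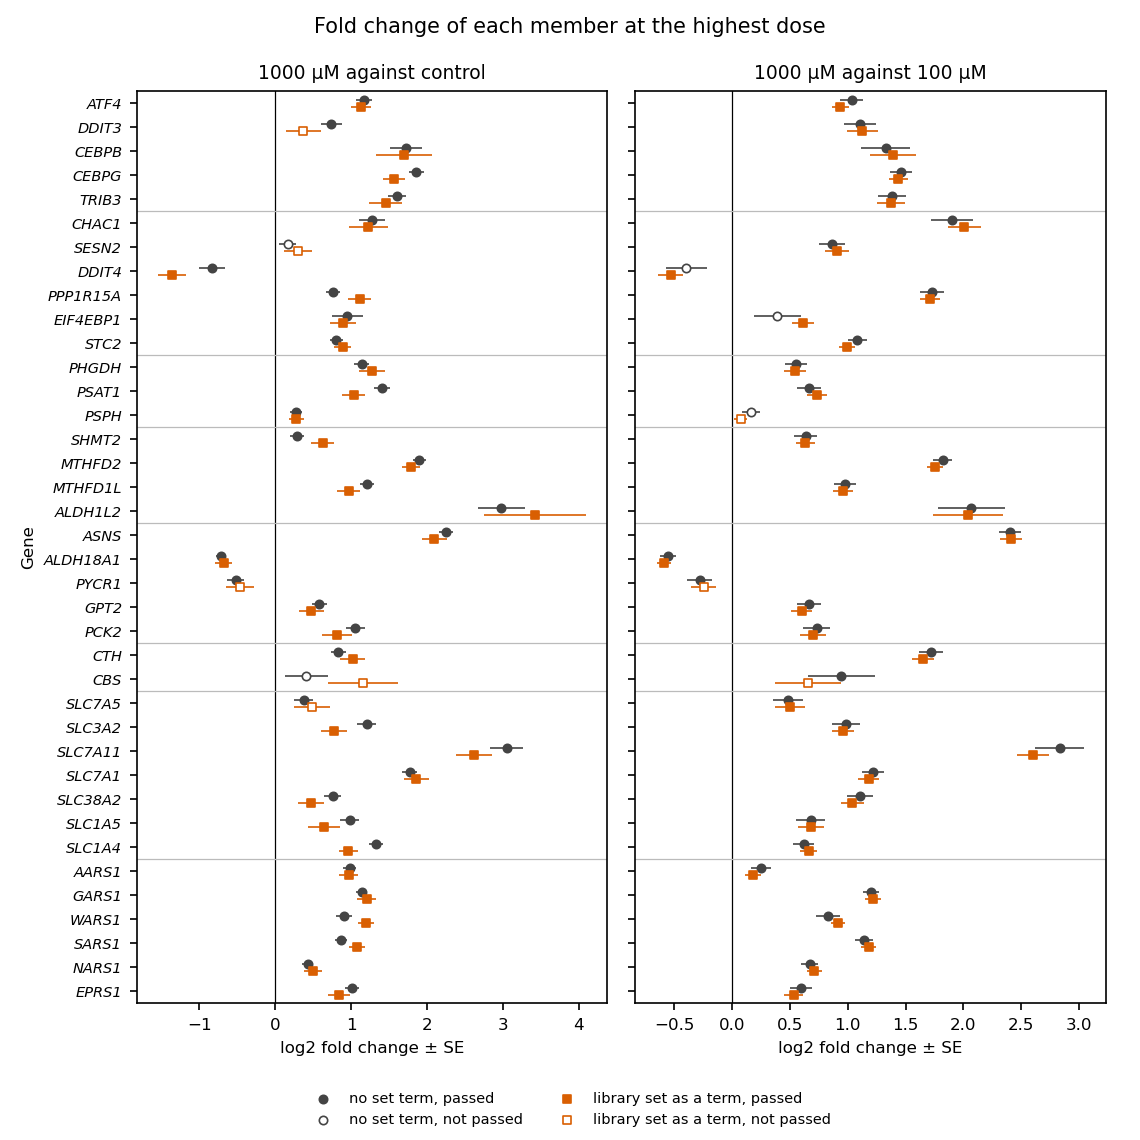
Points give each member's log2 fold change with its SE, at 1000 µM against control (left) and against 100 µM (right), from 3 libraries a group. Circles are from the fit without the library set, squares from the fit with it, and filled symbols passed an adjusted p of 0.05. SLC7A11, ALDH1L2 and ASNS lie farthest to the right on the left panel (3.05, 2.98 and 2.25), and DDIT4, ALDH18A1 and PYCR1 lie left of 0.

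The effectors, which damp or carry out the stress response, were mixed. At 1000 µM 4 of 6 were higher than control, DDIT4 was lower and SESN2 did not pass, in both fits. CHAC1, which breaks down glutathione, was at 4.74, 4.57 and 3.53 CPM in controls, 3.65 to 5.85 CPM (median 4.84) at 0.01 to 10 µM, 2.81, 2.60 and 2.96 at 100 µM and 8.98, 8.01 and 14.3 at 1000 µM. It was thus lowest in the 100 µM libraries and highest in the 1000 µM ones. Its log2 fold change against control was -0.63 ± 0.18 at 100 µM (adjusted p = 0.00817, edgeR) and 1.27 ± 0.17 at 1000 µM (adjusted p = 3.74e-06). In the set-term fit they were -0.78 and 1.23. At 1000 µM the set C library had 1.68 times the mean of the 2 set B libraries.

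PPP1R15A (GADD34), the phosphatase subunit that reverses eIF2 phosphorylation, had the same shape. Its level was 64.1, 70.6 and 56.7 CPM in controls, 65.3, 63.4 and 69.4 at 0.01 µM, 63.6, 66.7 and 65.2 at 0.1 µM and 66.3, 65.5 and 52.5 at 1 µM. It was 48.8, 46.0 and 43.4 CPM at 10 µM, 30.9, 35.8 and 31.1 at 100 µM and 112, 101 and 112 at 1000 µM. The 100 µM libraries lay below every other library and the 1000 µM libraries above every other. Against control the log2 fold change was -0.97 ± 0.10 at 100 µM (adjusted p = 2.62e-07, edgeR) and 0.76 ± 0.10 at 1000 µM (adjusted p = 1.86e-06). With the set term these were -0.60 (adjusted p = 0.0116) and 1.11.

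STC2, a secreted stanniocalcin, was at 169, 163 and 155 CPM in controls, 157 to 177 CPM (median 167) at 0.01 to 10 µM, 129, 146 and 126 at 100 µM and 294, 315 and 244 at 1000 µM. STC2 changed by 0.81 ± 0.08 at 1000 µM (adjusted p = 1.40e-07, edgeR; 0.89 with the set term). EIF4EBP1, the translation repressor 4E-BP1, rose by 0.95 ± 0.20 on the same scale (0.89 with the set term). Its set C library at 1000 µM was 1.86 times the set B mean, and its set C libraries at 100 µM were also above the set B library, at 77.3, 49.2 and 76.1 CPM in replicate order.

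DDIT4 (REDD1), an inhibitor of mTORC1, went the other way. It had 192, 202 and 151 CPM in controls, 221, 194 and 218 at 0.01 µM, 185, 223 and 184 at 0.1 µM and 190.3, 196 and 306 at 1 µM. It had 262, 273 and 249 CPM at 10 µM, 127, 168 and 107 at 100 µM and 107, 113 and 86.1 at 1000 µM. The 306 CPM at 1 µM belongs to replicate 3, the only 1 µM library in set B, and the 10 µM libraries of the same set were also high. At 1000 µM the log2 fold change was -0.83 ± 0.18 (adjusted p = 5.58e-04, edgeR), and -1.36 ± 0.18 with the set term. SESN2, a leucine sensor of the mTORC1 pathway, was at 52.7, 53.1 and 41.5 CPM in controls, 28.9, 30.9 and 31.1 at 100 µM and 50.1, 49.1 and 66.3 at 1000 µM. SESN2 was lower than control at 100 µM (-0.70 ± 0.11, adjusted p = 5.96e-05, edgeR), while at 1000 µM the groups overlapped.

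All 3 serine synthesis enzymes were higher at 1000 µM in both fits. PHGDH, which takes the first step from glycolysis to serine, was at 129, 133 and 99.5 CPM in controls, 129 to 153 CPM (median 141) at 0.01 to 10 µM, 171, 200.3 and 171 at 100 µM and 258, 251 and 287 at 1000 µM. Its log2 fold change was already 0.59 ± 0.10 at 100 µM (adjusted p = 6.20e-05, edgeR; 0.73 with the set term) and 1.14 ± 0.10 at 1000 µM (adjusted p = 7.87e-09; 1.27 with the set term). PSAT1, the aminotransferase of the next step, was at 219, 213 and 237 CPM in controls, 189 to 304 CPM (median 236) at 0.01 to 10 µM, 391, 335 and 395 at 100 µM and 553, 575 and 648 at 1000 µM. The groups at 100 and 1000 µM did not overlap each other or control.

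PSAT1 changed by 1.41 ± 0.11 at 1000 µM (adjusted p = 1.89e-09, edgeR), and by 1.04 with the set term. At 100 µM its 0.74 became 0.30 with the set term and no longer passed (adjusted p = 0.213). PSPH, the phosphatase that completes serine, moved least, by 0.27 ± 0.08 (adjusted p = 0.00703). It did not pass with only the control and 1000 µM groups in the fit (adjusted p = 0.0649) or against 100 µM (0.16 ± 0.08, adjusted p = 0.110).

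The 4 mitochondrial one-carbon enzymes, which turn serine into glycine and formate, all rose at 1000 µM and had the second highest branch median of log2 fold change, 1.56 (1.38 with the set term). MTHFD2, the dehydrogenase and cyclohydrolase, was at 204, 197 and 211 CPM in controls and 219.9, 192 and 195 at 0.01 µM. It was 194, 202 and 217 CPM at 0.1 µM, 208, 200.4 and 229 at 1 µM, 232, 228 and 233 at 10 µM and 209, 228 and 209 at 100 µM. At 1000 µM it was 787, 816 and 680.3 CPM, far above every other library. The log2 fold change was 1.90 ± 0.08 (adjusted p = 1.03e-12, edgeR), and 1.79 with the set term.

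MTHFD1L, which releases formate, was at 56.6, 58.3 and 58.0 CPM in controls, 53.7 to 72.8 CPM (median 62.6) at 0.01 to 10 µM, 62.3, 76.5 and 64.3 at 100 µM and 130.5, 128 and 142 at 1000 µM, a change of 1.21 ± 0.09 against control (adjusted p = 2.07e-09, edgeR; 0.97 with the set term). ALDH1L2, which oxidises formyl-folate, was barely detected, at 0.306, 0.156 and 0.268 CPM in controls, 0.161 to 0.426 CPM (median 0.272) at 0.01 to 10 µM, 0.525, 0.405 and 0.441 at 100 µM and 2.19, 1.91 and 1.62 at 1000 µM. Its lowest library had 6 counts among controls and 39 at 1000 µM, so its log2 fold change of 2.98 ± 0.31 (adjusted p = 1.25e-07, edgeR; 3.42 with the set term) rests on few reads. All 3 libraries at 1000 µM lay above the other 18.

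SHMT2, which splits serine, was at 441, 440.2 and 348 CPM in controls, 324 to 474 CPM (median 433) at 0.01 to 10 µM, 317, 337 and 312 at 100 µM and 495, 482 and 524 at 1000 µM. Its log2 fold change at 1000 µM was 0.29 ± 0.10 (adjusted p = 0.0155, edgeR) and 0.62 ± 0.15 with the set term. Without control replicate 3, its lowest control, the value was 0.18 and did not pass (adjusted p = 0.0888), nor did it without 1000 µM replicate 3 (0.25, adjusted p = 0.05005) or with only the 2 groups in the fit (adjusted p = 0.0849).

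The folate and glycine genes outside the member list moved mostly downward. Of 11 tested, 3 rose and 7 fell at 1000 µM, and with the set term 2 rose and 6 fell. Beside these, 28.5% of all features rose and 29.1% fell (18.2% and 19.8% with the set term), so the share rising was near the background. SHMT1, the cytosolic counterpart of SHMT2, changed by -1.83 ± 0.09 on the log2 scale (78.1 CPM on average in controls, 22.1 at 1000 µM). GLDC, the glycine decarboxylase, changed by -1.75 ± 0.07 (142 to 42.1 CPM). MTHFS, which returns folinic acid to the folate pool, changed by 1.38 ± 0.13 (8.47 to 22.0 CPM), and SLC25A32, the mitochondrial folate carrier, by 0.67 ± 0.07 (31.2 to 49.6 CPM). Their adjusted p were 4.91e-12, 2.02e-13, 3.93e-08 and 1.25e-07 by edgeR, and each passed in the same direction with the set term. SHMT1 and SHMT2 thus had opposite signs, a difference between genes that was not itself tested.

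**Figure D3:**
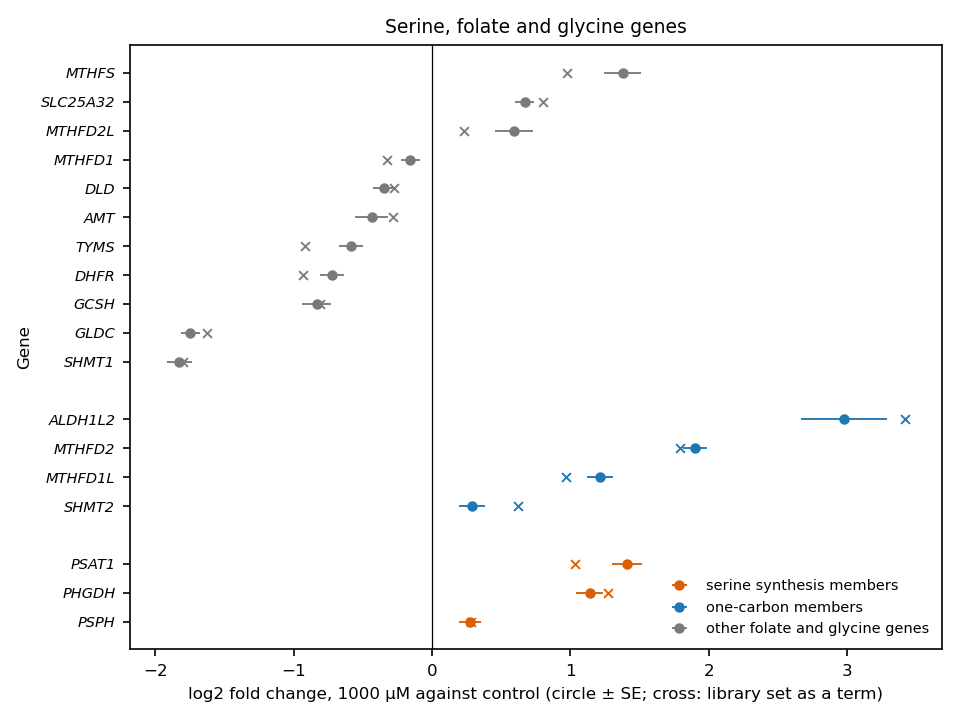
The plot shows the log2 fold change at 1000 µM against control (circles with SE, crosses with the library set as a term) for serine synthesis members, one-carbon members and the 11 other folate and glycine genes. All 7 members lie right of 0, and SHMT1 (-1.83) and GLDC (-1.75) lie farthest left.

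Of the 5 other amino acid enzymes 3 rose and 2 fell at 1000 µM. ASNS, asparagine synthetase and the classical amino acid response gene, was at 80.4, 81.5 and 108 CPM in controls, 85.4, 84.7 and 83.7 at 0.01 µM, 80.1, 87.3 and 84.9 at 0.1 µM and 94.5, 81.7 and 97.2 at 1 µM. It was 92.2, 90.2 and 91.7 CPM at 10 µM, 82.5, 78.1 and 82.1 at 100 µM and 423, 433 and 425 at 1000 µM. The first 18 libraries lay between 78.1 and 108 CPM, while the 3 at 1000 µM lay far above and close to each other. ASNS was 4.75-fold higher than control (log2 2.25 ± 0.10, adjusted p = 6.28e-13, edgeR), and its log2 fold change was 2.10 with the set term.

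PCK2, the mitochondrial enzyme that makes phosphoenolpyruvate, was at 62.9, 64.8 and 47.0 CPM in controls, 60.5 to 78.2 CPM (median 64.5) at 0.01 to 10 µM, 64.4, 87.1 and 67.4 at 100 µM and 120.3, 114 and 130.0 at 1000 µM (log2 fold change 1.06 ± 0.12, adjusted p = 3.79e-07, edgeR; 0.81 with the set term). GPT2, the mitochondrial alanine aminotransferase, was at 262, 248 and 195 CPM in controls, 259 to 301 CPM (median 273) at 0.01 to 10 µM, 199, 262 and 204 at 100 µM and 352, 359.7 and 344 at 1000 µM. GPT2 changed by 0.58 ± 0.10 (adjusted p = 9.28e-05, edgeR), and by 0.48 with the set term (adjusted p = 0.0249).

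The genes that fell were both of proline synthesis. ALDH18A1, whose enzyme starts proline and ornithine synthesis from glutamate, was at 569.9, 556 and 593 CPM in controls, 549.7 to 597 CPM (median 570.4) at 0.01 to 10 µM, 478, 565 and 492 at 100 µM and 337, 362 and 348 at 1000 µM. The change was -0.72 ± 0.07 (adjusted p = 3.84e-08, edgeR) and -0.68 with the set term. PYCR1, which completes proline, was at 291, 298 and 216 CPM in controls and 177, 166 and 218 at 1000 µM, so its groups overlapped by a narrow margin. PYCR1 changed by -0.52 ± 0.11 (adjusted p = 4.48e-04), and with the set term by -0.47 ± 0.19, which did not pass (adjusted p = 0.0565).

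In transsulfuration, which makes cysteine from methionine, CTH was at 18.5, 19.2 and 24.2 CPM in controls, 20.1, 22.1 and 20.6 at 0.01 µM, 20.8, 20.9 and 20.4 at 0.1 µM and 20.5, 20.4 and 18.8 at 1 µM. CTH was at 18.2, 19.6 and 20.4 CPM at 10 µM, 10.9, 11.9 and 10.6 at 100 µM and 40.0, 37.5 and 32.5 at 1000 µM. Like PPP1R15A, it was lowest at 100 µM and highest at 1000 µM, with no overlap of either group with the rest. The log2 fold change against control was -0.88 ± 0.10 at 100 µM (adjusted p = 1.31e-06, edgeR; -0.63 with the set term, adjusted p = 0.0144) and 0.83 ± 0.10 at 1000 µM (adjusted p = 8.39e-07; 1.02 with the set term).

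CBS, the enzyme of the preceding step, did not pass at 1000 µM (0.41 ± 0.29, adjusted p = 0.232; 1.15 ± 0.46 with the set term, adjusted p = 0.0621). Its libraries there were at 51.8, 43.0 and 21.6 CPM and the set C library had 0.45 times the set B mean. Without that library the change was 0.69 and passed (adjusted p = 0.0289). CBS has a near-identical gene copy, CBSL, so its counts are uncertain.

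**Figure D4:**
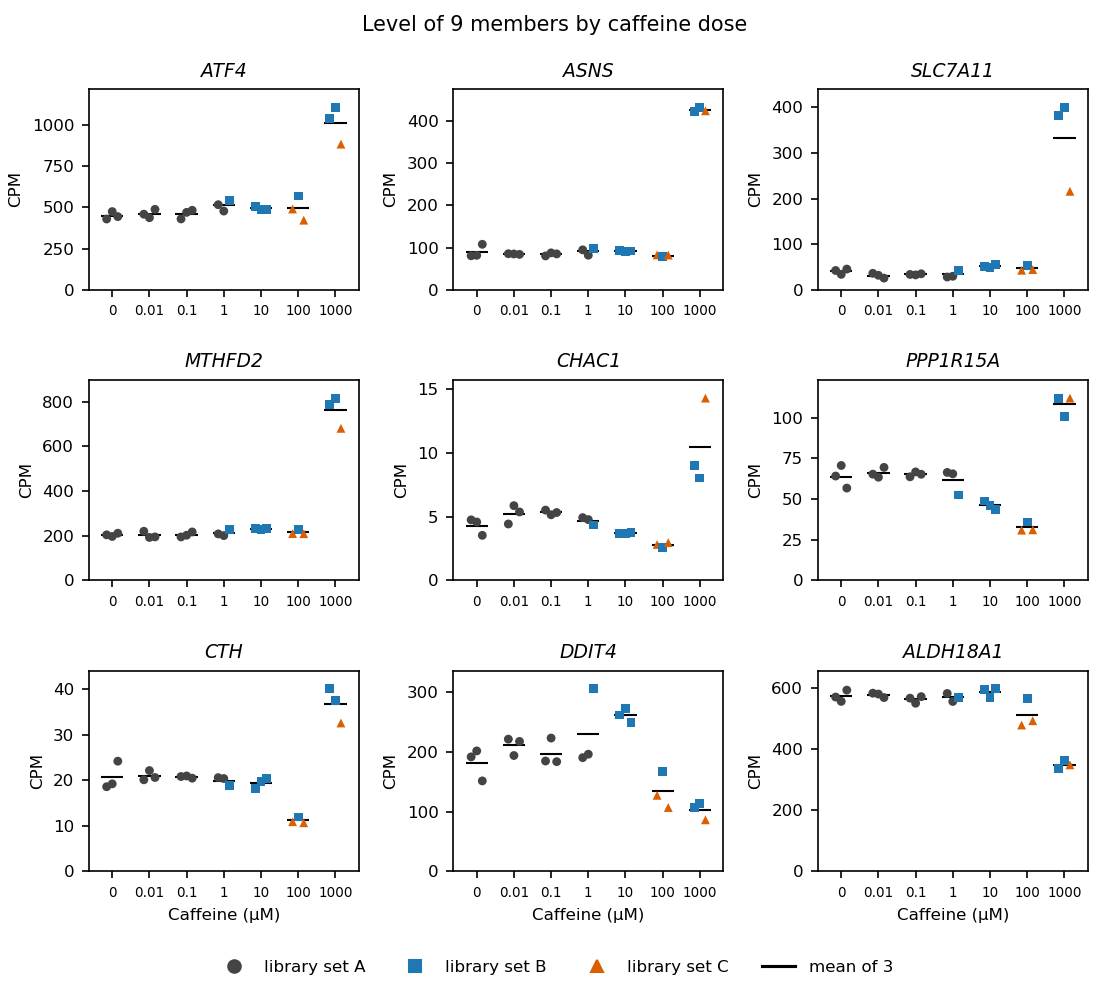
The panels plot CPM against caffeine dose for 9 members, with 1 point per library, its shape and colour giving the library set, and a bar at the mean of each group of 3. ATF4, ASNS, SLC7A11 and MTHFD2 stand high at 1000 µM only, CHAC1, PPP1R15A and CTH are lowest at 100 µM and highest at 1000 µM, and DDIT4 and ALDH18A1 are lowest at 1000 µM.

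All 7 transporters were higher than control at 1000 µM, and 6 with the set term. SLC7A11 (xCT), which brings in cystine in exchange for glutamate, had the largest log2 fold change of all members without the set term. It was at 42.0, 33.5 and 45.1 CPM in controls, 35.9, 31.5 and 25.4 at 0.01 µM, 33.3, 32.3 and 34.8 at 0.1 µM and 27.7, 29.4 and 42.8 at 1 µM. It was at 50, 49.1 and 56.0 CPM at 10 µM, 42.6, 53.1 and 44.1 at 100 µM and 382, 400.3 and 216 at 1000 µM. The 1000 µM libraries lay above all others, but the set C library had 0.55 times the set B mean. The change was 8.28-fold (log2 3.05 ± 0.21, adjusted p = 1.34e-09, edgeR), and 2.62 on the log2 scale with the set term.

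SLC7A1, the cationic amino acid carrier CAT-1, was at 82.8, 77.7 and 64.6 CPM in controls, 74.9 to 98.9 CPM (median 86.6) at 0.01 to 10 µM, 100.0, 123 and 106 at 100 µM and 263, 251 and 254 at 1000 µM. Its log2 fold change was 0.55 ± 0.09 at 100 µM (adjusted p = 9.36e-05, edgeR; 0.68 with the set term) and 1.77 ± 0.10 at 1000 µM (adjusted p = 1.56e-11; 1.86 with the set term). SLC1A4, a carrier of serine and other neutral amino acids, was at 64.3, 62.8 and 57.1 CPM in controls, 60.9 to 84.2 CPM (median 64.6) at 0.01 to 10 µM, 97.4, 100.4 and 102 at 100 µM and 141, 144 and 176 at 1000 µM. Its steps at 100 and at 1000 µM left no overlap with the groups below, and the change at 1000 µM was 1.32 ± 0.09 (adjusted p = 4.38e-10; 0.96 with the set term). At 100 µM SLC1A4 did not pass with the set term.

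SLC3A2, the heavy chain shared by SLC7A5 and SLC7A11, was at 78.0, 81.4 and 68.7 CPM in controls, 76.8 to 114 CPM (median 87.7) at 0.01 to 10 µM, 81.1, 102 and 82.3 at 100 µM and 175, 166 and 184 at 1000 µM. SLC3A2 changed by 1.20 ± 0.12 at 1000 µM (adjusted p = 7.81e-08, edgeR), and by 0.77 with the set term. SLC7A5, the leucine carrier LAT1, was at 301, 294 and 194 CPM in controls and 320.1, 309 and 393 at 1000 µM. Its 0.37 ± 0.13 (adjusted p = 0.0194) did not pass with the set term (0.48 ± 0.24, adjusted p = 0.124), nor without control replicate 3 (0.20, adjusted p = 0.115), without 1000 µM replicate 3 (0.25, adjusted p = 0.110) or with only the 2 groups in the fit (adjusted p = 0.131). The glutamine carriers SLC38A2 and SLC1A5 rose by 0.76 ± 0.11 and 0.98 ± 0.12 (0.47 and 0.64 with the set term).

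Transporter genes outside the list were mostly not called. Of 12 tested of 15 listed, 2 rose and 1 fell at 1000 µM, and with the set term 3 rose. Over all features 28.5% rose and 29.1% fell, and with the set term 18.2% and 19.8%. SLC38A1, a glutamine carrier, changed by 1.57 ± 0.11, SLC38A9, the lysosomal arginine sensor, by 0.62 ± 0.10, and SLC7A6 by -0.36 ± 0.11 (adjusted p = 3.96e-10, 3.68e-05 and 0.0115, edgeR). The SLC7A6 value was -0.34 with the set term and did not pass (adjusted p = 0.176).

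All 6 tRNA synthetase members, which charge tRNAs with amino acids, rose at 1000 µM in both fits, by 0.43 to 1.14 on the log2 scale without the set term. GARS1, for glycine, was at 236, 253 and 280.0 CPM in controls, 248 to 286 CPM (median 259) at 0.01 to 10 µM, 245, 245 and 247 at 100 µM and 546, 555 and 594 at 1000 µM. The change of 1.14 ± 0.07 (adjusted p = 1.46e-10, edgeR; 1.20 with the set term) came with no difference at 100 µM past the threshold. EPRS1, for glutamate and proline, was at 118, 109 and 139 CPM in controls, 104 to 163 CPM (median 117) at 0.01 to 10 µM, 154, 177 and 157 at 100 µM and 249, 264 and 224 at 1000 µM (change 1.01 ± 0.10, adjusted p = 4.91e-08; 0.84 with the set term).

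AARS1, for alanine, rose already at 100 µM. It was at 126, 127 and 116 CPM in controls, 125 to 154 CPM (median 135) at 0.01 to 10 µM, 191, 241 and 184 at 100 µM and 248, 249 and 235 at 1000 µM. Its log2 fold change was 0.74 ± 0.09 at 100 µM (adjusted p = 1.38e-06, edgeR; 0.79 with the set term) and 0.98 ± 0.09 at 1000 µM (adjusted p = 1.26e-08; 0.97 with the set term). The 100 and 1000 µM libraries overlapped, and between those doses AARS1 differed by 0.25 ± 0.09 (adjusted p = 0.0247). That small difference did not pass without 1000 µM replicate 1 (adjusted p = 0.0759), 1000 µM replicate 2 (0.0761), 100 µM replicate 1 (0.126) or 100 µM replicate 3 (0.158), nor with no filter (0.156) or only the 2 groups in the fit (0.168).

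WARS1, for tryptophan, was at 81.0, 80.2 and 75.6 CPM in controls, 60.6 to 85.8 CPM (median 80.2) at 0.01 to 10 µM, 88.1, 75.4 and 87.0 at 100 µM and 136, 136 and 172 at 1000 µM (change 0.91 ± 0.10, adjusted p = 3.73e-07, edgeR; 1.20 with the set term). SARS1, for serine, changed by 0.87 ± 0.08 and NARS1, for asparagine, by 0.43 ± 0.07 (1.08 and 0.49 with the set term). Of 14 other cytosolic synthetases 8 rose and 4 fell at 1000 µM, and 7 rose and 1 fell with the set term, with medians of 0.38 and 0.37. Of all features tested, 28.5% rose and 29.1% fell (18.2% and 19.8% with the set term).

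MARS1, for methionine, had the largest change among these at 1.82 ± 0.08, above all 6 members. The others of lowest p were YARS1, for tyrosine, at 1.03 ± 0.07, CARS1, for cysteine, at 0.69 ± 0.08 and IARS1, for isoleucine, at 0.81 ± 0.09 (adjusted p in order, MARS1 first, 9.47e-13, 4.87e-10, 2.59e-07 and 3.41e-07, edgeR). Of the 17 mitochondrial synthetases, encoded by separate nuclear genes, 10 rose and 2 fell, and 7 rose and 1 fell with the set term, with medians of 0.31 and 0.13. In that contrast 57.6% of all features passed (28.5% higher, 29.1% lower), and 38% with the set term (18.2% higher, 19.8% lower). Those of lowest p were EARS2, for glutamate, at -0.65 ± 0.08, WARS2, for tryptophan, at 0.76 ± 0.09, NARS2, for asparagine, at 0.99 ± 0.13 and TARS2, for threonine, at 0.56 ± 0.08 (adjusted p = 4.71e-07, 7.74e-07, 2.67e-06 and 9.09e-06, edgeR), and each passed in the same direction with the set term. Against 100 µM the mitochondrial list had 3 higher and 6 lower and the 14 other cytosolic synthetases 7 higher and 2 lower, where the 6 cytosolic members were all higher, beside 21.8% of all features higher and 22.3% lower. The difference between these lists was not tested.

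**Figure D5:**
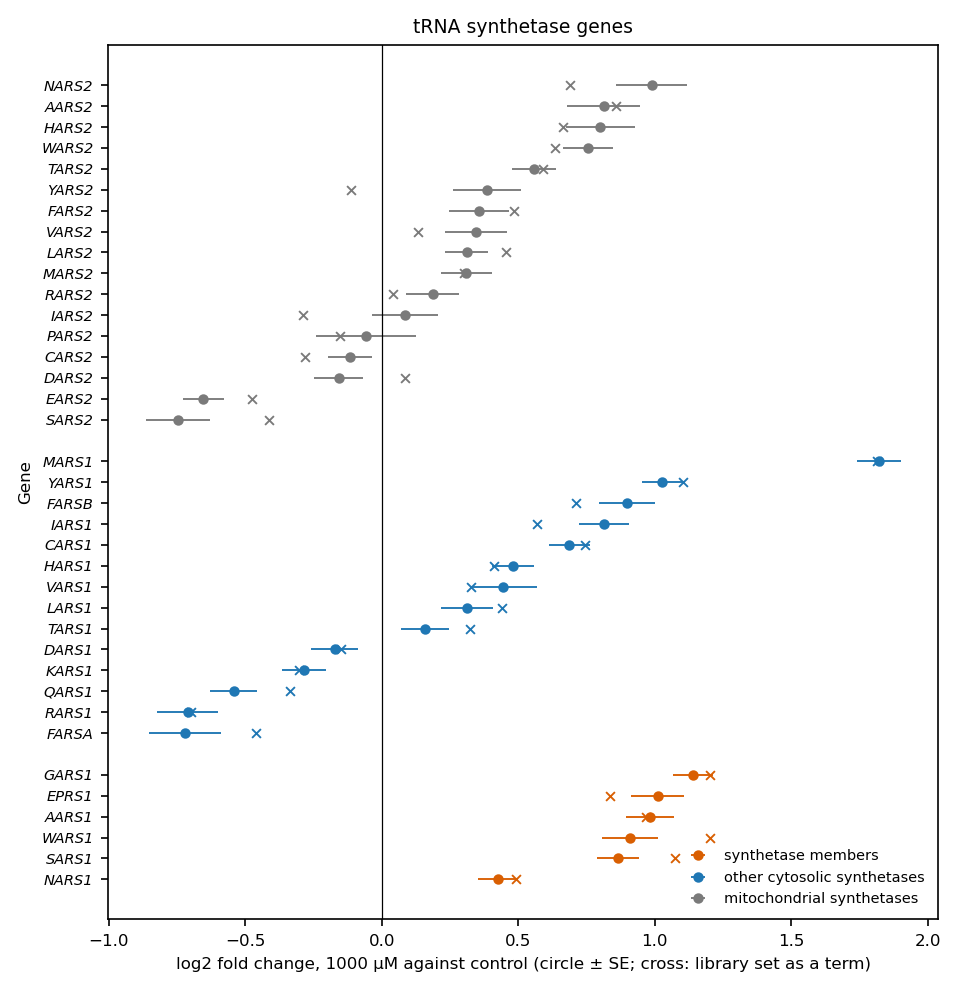
The plot gives the log2 fold change at 1000 µM against control for the 6 synthetase members, the 14 other cytosolic synthetases and the 17 mitochondrial ones (circles with SE, crosses with the library set as a term). All 6 members lie between 0.43 and 1.14, whereas both other lists have genes on each side of 0.

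Set side by side, the branches differed in the size and evenness of their change at 1000 µM. The median log2 fold change was 1.61 for regulators, 1.56 for one-carbon enzymes, 1.20 for transporters, 1.14 for serine synthesis, 0.95 for tRNA synthetases, 0.78 for effectors, 0.62 for transsulfuration and 0.58 for the other amino acid enzymes. With the set term the medians were 1.45, 1.38, 0.77, 1.04, 1.02, 0.89, 1.09 and 0.48 in the same order, so the transporters moved from the third to below the tRNA synthetases and the effectors. The summed CPM of the serine branch was 450.3, 448 and 443 in controls, 665, 659.7 and 673 at 100 µM and 943, 960.1 and 1044 at 1000 µM. That of the one-carbon branch was 702, 695 and 617 in controls, 589, 642 and 585 at 100 µM and 1415, 1427 and 1347 at 1000 µM. The serine sum already ran from 457 to 534.5 CPM at 0.01 to 1 µM and from 552 to 563 CPM in the 10 µM libraries of set B, so every library with caffeine was above the controls. PSAT1 was its largest part in every library, and of the 3 serine genes only PHGDH passed at 100 µM with the set term. The one-carbon sum was above all controls in every library at 1000 µM and in none at 100 µM. No test was made between branches.

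Per kilobase of exon the order of levels also changed. In controls SLC38A2 (182 CPM per kb), ATF4 (179), ALDH18A1 (152) and PSAT1 (102) stood highest among the members, and ALDH1L2 (0.0286) and CHAC1 (2.08) lowest. At 1000 µM the highest were ATF4 (402 CPM per kb), SLC38A2 (308), PSAT1 (271), MTHFD2 (156) and GARS1 (136). Exon lengths were those of GENCODE 29, and the annotation behind the counts is not given in the sources used here.

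The comparison of 1000 µM with 100 µM sets no group against the controls, which enter through the shared fit, and both groups span sets B and C. Here 33 members were higher at 1000 µM and 2 lower, ALDH18A1 and PYCR1, beside 44% of all features passing (21.8% higher, 22.3% lower). With the set term 33 were higher and 2 lower, beside 46.3% of features (22.4% higher, 23.9% lower), and the lower ones were then ALDH18A1 and DDIT4. The value for PYCR1 was -0.28 ± 0.11 (adjusted p = 0.0442, edgeR) and did not pass with the replicate block (0.0578), with only the 2 groups in the fit (0.098) or with no filter (0.0527). Nor did it pass without 1000 µM replicate 1 (0.148) or 2 (0.209), without any 1 of the 100 µM libraries (0.0636 to 0.106), or without any of 6 libraries at 0.01, 0.1 and 10 µM (0.0519 to 0.0537). The members' median log2 difference was 0.96, and 0.93 with the set term. In set B alone and in set C alone, 35 members had a higher level at 1000 than at 100 µM and ALDH18A1, PYCR1 and DDIT4 a lower one, with none split between the sets. The same count was not made over all features, so it has no background to be read against.

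ASNS was 5.48 times as high at 1000 as at 100 µM in set B and 5.16 times in set C. For MTHFD2 these ratios were 3.52 and 3.25, for CTH 3.26 and 3.03, for PPP1R15A 2.97 and 3.62, and for SLC7A11 7.37 and 4.98. Those ratios rest on 1 or 2 libraries a dose in each set and have no test of their own. CBS passed without the set term (0.94 ± 0.29, adjusted p = 0.0142) and not with it (0.66, adjusted p = 0.0723). It did not pass either with no filter (adjusted p = 0.0549), with only the 2 groups in the fit (0.0518), or without 1000 µM replicate 1 (0.0964) or 2 (0.0519).

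Set B also holds all 3 libraries at 10 µM, which allows a contrast of 1000 with 10 µM inside 1 set, fitted on its 7 libraries. Of the 38 members 34 were higher at 1000 µM and 3 lower, beside 65.1% of 18323 features tested (31.5% higher, 33.6% lower). The member that did not pass was PSPH (0.07 ± 0.05, adjusted p = 0.198, edgeR), and the lower ones were DDIT4 (-1.29), ALDH18A1 (-0.78) and PYCR1 (-0.64). The median was 0.82. Inside this set ATF4 changed by 1.09 ± 0.05, ASNS by 2.20 ± 0.05, SLC7A11 by 2.89 ± 0.06 and MTHFD2 by 1.76 ± 0.05. The 1000 µM arm has 2 libraries here.

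At 100 µM the response was split. Against control 11 members were higher and 11 lower, beside 46.6% of all features (23.6% higher, 22.9% lower), so the share of members passing was close to the background. With the set term 3 were higher and 7 lower, beside 17.3% of features (9.14% higher, 8.21% lower). The 3 higher were PHGDH, SLC7A1 and AARS1. The 7 lower were the regulator DDIT3 (-0.76), the effectors CHAC1 (-0.78), SESN2 (-0.61), DDIT4 (-0.83) and PPP1R15A (-0.60), CTH (-0.63) and the transporter SLC38A2 (-0.57). None of the 4 one-carbon genes passed in that fit. The 3 libraries lay above all 3 controls for 11 members (25.8% of features) and below them for 10 (25.3%).

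The values at 100 and at 1000 µM share their control libraries and are given side by side only. For ASNS they were -0.15 and 2.25, for MTHFD2 0.08 and 1.90, for SLC7A11 0.22 and 3.05, and for ATF4 0.14 and 1.17. None of these 4 passed at 100 µM.

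At 10 µM 9 members were higher and 3 lower than control, beside 14.8% of all features (7.27% higher, 7.49% lower), and with the set term none passed, as for nearly all features (0.0279% passing), with 1 member at an unadjusted p under 0.05 (4.94% of features). All 10 µM libraries are in set B and all controls in set A. Among the 12 members that passed, the largest values were 0.51 for SLC3A2, -0.47 for PPP1R15A and 0.44 for PSAT1, which became 0.04, -0.14 and 0.15 with the set term. The count of 12 fell to 4 without any 1 of the 10 µM libraries, to 7 or 6 without control replicate 1 or 2, and to 7 or 6 without replicate 1 or 3 at 0.1 µM. The share of all features passing was then also lower, at 5.63% to 6.98%, 9.39% or 8.83%, and 12.75% or 12.4% in the same order.

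At 0.01, 0.1 and 1 µM no member passed by edgeR, where 0.0279%, 0% and 0.106% of all features did. None passed with the set term either, beside 3.02%, 0.0223% and 0.629% of features. At an unadjusted p under 0.05 there were 4, 5 and 4 members without the set term, beside 15%, 9.48% and 15.7% of all features, and 11, 7 and 5 with it, beside 23.4%, 15.4% and 17.1%. The members' shares at these doses were thus near the background. DESeq2's Wald test called PHGDH higher at 0.01 µM and no member at 0.1 or 1 µM, and limma-voom called none at these 3 doses. Of all features the Wald test called 2.16%, 0.295% and 2.28%, and limma-voom 0.0501%, 0% and 0.15%. The call of PHGDH alone is thus near the background. Against the rank of the dose, 25 members had a rising slope and 2 a falling one, beside 55.3% of all features (29.6% rising, 25.7% falling). With the set term 5 rose, beside 4.27% of features (3.12% rising): AARS1, ALDH1L2, ATF4, PHGDH and SLC7A1. The slopes themselves did not shrink: the members' median was 0.12 per step without the set term and 0.17 with it, and 32 and 35 members were above 0. At an unadjusted p under 0.05 there were 30 members without it and 33 with it, beside 60.3% and 29.5% of features. The slope of SLC7A11 was 0.46 ± 0.08 per step without the set term and 0.50 ± 0.19 with it, and its 18 libraries below 1000 µM lay between 25.4 and 56.0 CPM.

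The 11 members with CARE letters in a listed promoter all rose at 1000 µM in both fits, with a median log2 fold change of 1.21 (0.97 with the set term). Of the 20 with a listed promoter and no match, 16 rose and 2 fell, with a median of 0.85 (14, 2 and 1.03 with the set term). For all features tested the shares were 28.5% higher and 29.1% lower (18.2% and 19.8% with the set term). The medians of the members with and without a match changed order between the fits. The windows are short, and SLC7A11 and 6 other members had no listed promoter, so these counts are a description only.

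Genes upstream of ATF4 were mixed at 1000 µM. Of 14 eIF2 kinase, eIF2 and eIF2B genes, 4 rose and 3 fell, and 5 rose and 2 fell with the set term. Among all features 28.5% rose and 29.1% fell (18.2% and 19.8% with the set term), so the first of these counts is near the background. EIF2B3 changed by 1.05 ± 0.10 and EIF2B5 by 0.84 ± 0.08 (both subunits of the exchange factor that phosphorylated eIF2 blocks), EIF2S3 by 0.82 ± 0.10 and EIF2AK4, which encodes GCN2, by -0.74 ± 0.08 (adjusted p = 4.07e-08, 4.99e-08, 1.77e-06 and 9.37e-08, edgeR). The GCN2 transcript was thus at 133 CPM on average in controls and 79.6 CPM at 1000 µM.

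Of 12 other genes related to ATF4, 10 rose and 1 did not pass, and CEBPD fell. With the set term 7 rose and 1 fell. The shares of all features were 28.5% higher and 29.1% lower, and 18.2% and 19.8% with the set term. NUPR1, a stress-induced chromatin protein, changed by 2.36 ± 0.13 (18.5 to 94.97 CPM), ATF3 by 1.64 ± 0.15 (3.38 to 10.6 CPM) and ATF5 by 1.31 ± 0.11 (9.74 to 24.1 CPM), with SLC38A1 also in this list. Their adjusted p were 2.99e-11, 1.42e-08 and 5.81e-09 by edgeR. CEBPD, a C/EBP family gene, changed by -1.72 ± 0.19, opposite in sign to the members CEBPB and CEBPG. It was named after its value was seen.

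Partners of SESN2 and DDIT4 in the mTORC1 and GATOR pathway were mixed. Of 12 tested of 13 listed, 2 rose and 5 fell, and 1 rose and 4 fell with the set term, where 57.6% and 38% of all features passed in the 2 fits, so the share passing was near the background. DEPDC5, of the GATOR1 complex that restrains mTORC1, changed by -1.17 ± 0.10 and SESN1, a relative of SESN2, by -0.96 ± 0.08. TSC1, a further brake on mTORC1, changed by 0.46 ± 0.08 and CASTOR1, an arginine sensor, by -1.05 ± 0.26 from 1.44 CPM in controls (adjusted p = 5.74e-09, 1.23e-08, 8.37e-05 and 0.00209, edgeR).

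HepG2 identity was checked on 12 hepatocyte or HepG2 markers, all of which were expressed. Their summed level was 35900 to 44430 CPM in controls and 29620 to 31690 CPM at 1000 µM. Markers of other cells were low. The 5 leukocyte markers summed to 0.729 to 1.04 CPM in controls and 3.98 to 4.49 CPM at 1000 µM, with CD3E at 0 in every library. The 5 fibroblast or stellate markers summed to 3.18 to 3.85 CPM in controls and 18.2 to 23.5 CPM at 1000 µM, where PDGFRB made up the sum and the other 4 never reached 1 CPM. Of 4 endothelial markers 2 were matched in the table and neither reached 1 CPM, and the squamous markers KRT5 and KRT14 were at 0. The part of these shifts in the members' values was not tested. In bulk RNA, a change in the share of cells that express a gene and a change in RNA per cell cannot be told apart.

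GARS1-DT, SLC7A11-AS1, CEBPB-AS1 and SLC38A2-AS1 are antisense or divergent neighbours of members. Whether the counting used strand is not given in the sources used here, so reads of these pairs may not be told apart. GARS1-DT had up to 720 counts in a library and SLC7A11-AS1 up to 107.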

How the data were processed

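Per the labels' protocols, Trizol RNA was purified with poly(dT) beads before cDNA synthesis. The authors deposited raw read counts per feature, without normalization. The submitters' processing notes name HISAT2, DESeq2 and GRCh38, without roles. The counting tool, annotation release and use of strand are not given in the sources used here. The table's 21 other sample columns were left out. Filtering with filterByExpr by group kept 17951 features (1697 of them unannotated loci). In edgeR 4.0.16 under R 4.3.3, the deposited counts, scaled by TMM, entered 1 robust quasi-likelihood fit of 7 group means over 21 libraries. Each p is 2-sided, with Benjamini-Hochberg adjustment over all features tested and a threshold of 0.05. The SE of a log2 fold change is its size over the square root of F. CPM used TMM-scaled library sizes. The slope used dose ranks from 0 to 6.

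Library sets came from average linkage on centred log2 counts of 13 mitochondrial mRNAs (mean silhouette 0.571 for 3 clusters, 0.525 for 2). Symbols were matched by Ensembl identifier for 32255 features. The fits were tested on simulated counts. Where these held a difference between sets, the slope without the set term, and to a lesser degree 1000 µM against control, called unchanged features, and the set-term fit missed most of the changes put in against control. No pair of replicates agreed within counting noise (chi-square per feature at least 3.59 over 21 pairs). The members, branches, lists, tests and the choice of named genes were made with earlier results of these data known. Values are given by library for ATF4 and for up to 4 members a branch, those with the largest change among members that passed against control and against 100 µM in both fits. Library values of DDIT3, DDIT4, EIF4EBP1, SESN2, PYCR1, CBS and SLC7A5 were added after they were seen. For most of these the libraries at 0.01 to 10 µM are given as a range with the median. Each other list is shown by its 4 genes of lowest p at 1000 µM, or by fewer where fewer passed, and 1 folate gene is not reported here. Alternatives were leaving out 1 library at a time, a term for the library set, the replicate number as a block, only the 2 groups compared, other dose scales for the slope, an unfiltered table, a minimum mean of 5 CPM, size factors from DESeq2 1.42.0, its Wald test, and limma-voom (limma 3.58.1).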

Additional observations from a re-analysis of the deposited data

How the results depend on the processing

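At 1000 µM the count of 36 members past the threshold stayed between 33 and 36 under every alternative run, and the 35 against 100 µM between 32 and 36. Of all features 28.1% to 66.8% passed in the first contrast and 19.7% to 55.2% in the second. The term for the library set took the count down from 12 to 0 at 10 µM, from 22 to 10 at 100 µM and from 27 to 5 for the slope on dose rank, whose median over members went from 0.12 to 0.17 per step. The share of all features passing fell too, from 14.8% to 0.0279%, from 46.6% to 17.3% and from 55.3% to 4.27% in that order. At 10 µM the member count was 7 with no filter (4.98% of all features) and 6 with the replicate block (12.7%). DESeq2's Wald test gave 1 member at 0.01 µM (2.16% of features), where edgeR gave 0 (0.0279%). The cause of these shifts was not tested, except that the unfiltered fit adjusts over more features.

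Leaving out 1 library at a time gave 0 members at 0.01, 0.1 and 1 µM, beside at most 0.114%, 0.00544% and 0.647% of all features. The same step gave 4 to 17 for the 10 µM contrast, 17 to 25 for 100 µM, 34 to 36 for 1000 µM, 32 to 36 for 1000 against 100 µM, 23 to 29 for the slope and 36 to 37 inside set B.

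No member's sign changed at 1000 µM against control or against 100 µM. Of its values against control, 1090 kept their side of the threshold, 10 no longer passed and 1 newly passed; against 100 µM these were 1068, 26 and 7.

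Same-numbered replicates did not deviate together in any of the 21 pairs of groups (mean r from -0.11 to 0.15), so the numbers do not pair the libraries. Blocked on the replicate number, the count was 0 at 0.01, 0.1 and 1 µM, 6 at 10 µM, 20 at 100 µM, 36 at 1000 µM, 34 for 1000 against 100 µM, 25 for the slope and 35 inside set B. Shares of all features were 0% at 0.01 to 1 µM, then 12.7%, 45.1%, 56.6%, 42.7%, 53.3% and 65.9% in the same order. With 3 libraries a group, few reads limit ALDH1L2 and CHAC1 most. With the set term, contrasts with control at 10 µM and above rest on 1 library, 1 µM replicate 3, to link set B to set A.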
